A study of Mus musculus with 3 samples.

Results

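The endoplasmic reticulum (ER) chaperone, stress response and secretory genes were a fixed list of 58 genes whose products fold, export or degrade proteins of the secretory pathway. A gene was measured when at least 4 probesets of the array named it and no other gene, by its current or a former symbol, and its value on an array was the median over those probesets. By this rule 55 of the 58 genes were measured, among 18865 measured genes in all. Manf was found under its former symbol Armet, and Tango1 under its current symbol Mia3. Fkbp10, which encodes a collagen chaperone, had 0 such probesets, Srp54a had 2 and Kdelr2 had 3.

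The study hybridised RNA from bone marrow cells of C57BL/6 mice in which the nestin gene promoter drives GFP (green fluorescent protein). The GFP-positive cells were freshly isolated and sorted, and 3 arrays of this 1 group were made, with no second group among the samples used here. Before labelling, the RNA went through a whole-transcript amplification (WT-Ovation Pico). Separate mice or sorts are not stated for the 3 samples, so a p-value here reflects array-to-array spread that may be purely technical. The reporter marks cells by promoter activity, and Nes itself had 5.97, 5.21 and 5.56 on arrays 1, 2 and 3 and was not called above background (adjusted p = 0.757, limma).

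Proteins for secretion enter the ER through the Sec61 channel, are folded there by chaperones and disulfide isomerases, and leave in vesicles coated with COPII, while COPI vesicles return escaped ER residents. When unfolded proteins build up, the membrane sensors Ire1 (gene Ern1), Perk (Eif2ak3) and Atf6 start the unfolded protein response, in which the transcription factors Atf6, Xbp1 and Atf4 induce chaperone and degradation genes. Stromal and bone-forming cells of marrow secrete collagen and other matrix proteins through this pathway, and antibody-secreting plasma cells are the marrow's other well-known user of it.

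All values are log2 expression on the scale of RMA (robust multi-array average), as deposited. Each gene was set against background genes on the same array. The chemosensory background was 355 olfactory, vomeronasal and bitter taste receptor genes, and the 95th percentile of these genes was the threshold, at 5.40, 5.66 and 5.64 on arrays 1, 2 and 3. The stricter other-tissue background was 124 genes typical of liver, retina, testis, pancreas, muscle, brain and other organs, with thresholds of 6.76, 6.66 and 6.66. A gene was called when limma's one-sided test gave a Benjamini-Hochberg adjusted p below 0.05 over all 18865 genes, and its margin is its mean distance above the threshold. Members are given by their values on arrays 1, 2 and 3, in that order, followed in parentheses by the mean ± SD (n = 3). Probes differ in affinity, so a value or margin set beside that of another gene does not compare their RNA amounts.

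Between the arrays, array 2 stood apart in endothelial markers. All 12 of 12 measured endothelial genes were lowest on array 2, with a median deviation from the gene's own mean of -1.22 there, against 0.31 on array 1 and 0.76 on array 3. Stroma markers did not show this, with median deviations of -0.02, 0.02 and -0.05 on arrays 1, 2 and 3, and 9 of 10 were called, Nes being the exception. By their medians the other marker lists differed less, but single genes in them differed widely. Mrc1 (macrophage) had a range of 4.71 over the arrays, Mpo (neutrophil) 3.10 and Hbb-b1 (erythroid) 2.23. Pan-leukocyte genes had median deviations of -0.20, -0.22 and 0.26 on arrays 1, 2 and 3, and neutrophil genes -0.20, -0.09 and 0.21. Macrophage genes had -0.07, -0.002 and 0.15, erythroid genes -0.24, -0.16 and 0.24, and osteoblast genes 0.22, -0.20 and -0.08. Many of the blood cell genes were not called above background. Over all measured genes, which are not independent replicates, the 3 pairs of arrays correlated with Pearson's r from 0.933 to 0.947.

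The promoters of several members hold letters that match the DNA elements of the unfolded protein response, and these are shown first. The ER stress response element (ERSE, the letters CCAAT and CCACG with any 9 bases between them) is bound by Atf6 together with the CCAAT-binding factor NF-Y. ERSE-II (ATTGG and CCACG with any 1 base between them) and the unfolded protein response element (UPRE, TGACGTGG) are also read by Atf6 and Xbp1. Promoters of 300 bases, 250 before and 50 after the gene start, were taken from RefSeq (build GRCm38.p6) and searched on both strands. Of the 58 members 49 had an entry, with 54 promoters in all. The 3 motifs share the letters CCACG or their reverse complement, and no 2 matches overlapped in a member.

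The ERSE was found in the promoters of 8 members, the chaperone genes Hspa5, Hsp90b1, Calr, Canx, Dnajc3 and Creld2, the isomerase gene Pdia6 and the degradation gene Syvn1. These were 8 of 54 member promoters (14.8%), while 39 of all 32851 promoters (0.119%) held it. ERSE-II stood in 2 of 54 member promoters (3.7%), those of Dnajb11 and Herpud1, and in 12 of all promoters (0.0365%). The UPRE stood in 4 of 54 (7.41%), all of vesicle genes, namely Sec23a, Sec24d, Kdelr3 and Copb1, and in 222 of all promoters (0.676%). Any of the 3 was present in 14 of 54 member promoters (25.9%) and in 270 of all 32851 (0.822%). Members were chosen as known parts of this pathway, some of them textbook targets of the response, and a match to letters does not show that a factor binds.

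The 9 ERSE matches in these 8 promoters are given as read on the strand of the motif, 5′ to 3′, with 8 flanking bases and the match in capitals, because the fixed letters at both ends and the free spacer between them can be compared. Coordinates are of GRCm38.p6.
Hspa5, chr2:34772017-34772051, plus strand: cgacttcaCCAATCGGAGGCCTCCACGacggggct
Hsp90b1, chr10:86705630-86705664, minus strand: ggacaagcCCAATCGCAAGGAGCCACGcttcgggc
Hsp90b1, chr10:86705525-86705559, plus strand: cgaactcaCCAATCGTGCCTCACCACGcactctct
Calr, chr8:84847067-84847101, plus strand: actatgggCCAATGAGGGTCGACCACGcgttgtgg
Canx, chr11:50325792-50325826, minus strand: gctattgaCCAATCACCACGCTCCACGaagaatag
Dnajc3, chr14:118937819-118937853, plus strand: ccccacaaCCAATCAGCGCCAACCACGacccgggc
Creld2, chr15:88819512-88819546, minus strand: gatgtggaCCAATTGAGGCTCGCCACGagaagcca
Pdia6, chr12:17266483-17266517, plus strand: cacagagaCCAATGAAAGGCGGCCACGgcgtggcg
Syvn1, chr19:6046524-6046558, plus strand: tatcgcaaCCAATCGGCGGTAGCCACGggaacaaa

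All 9 carry the CCAAT and CCACG ends that define the search, and the 9 spacer bases differ from promoter to promoter. The other matches are shown in the same way. The first 2 lines are ERSE-II, in which both ends lie close together, and the last 4 are UPRE.
Dnajb11, chr16:22857844-22857870, plus strand: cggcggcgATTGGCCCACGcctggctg
Herpud1, chr8:94386369-94386395, plus strand: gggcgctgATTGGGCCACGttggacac
Sec23a, chr12:59011996-59012019, minus strand: ctccccttTGACGTGGcagaggcg
Sec24d, chr3:123267462-123267485, plus strand: cgggcgccTGACGTGGcactagca
Kdelr3, chr15:79516370-79516393, minus strand: ccgcgcggTGACGTGGcggggcgg
Copb1, chr7:114254693-114254716, plus strand: tccttggcTGACGTGGaagggggc

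The 250 bases before the start of 3 genes are given in full, read in the direction of the gene with matches in capitals. They are examples of a single exact ERSE match near the start (Hspa5), of a pair in opposite directions (Hsp90b1) and of an ERSE-II (Herpud1). Only exact letters were searched, so elements that differ from them by a base are neither marked nor counted.
Hspa5, chr2:34771840-34772089, plus strand: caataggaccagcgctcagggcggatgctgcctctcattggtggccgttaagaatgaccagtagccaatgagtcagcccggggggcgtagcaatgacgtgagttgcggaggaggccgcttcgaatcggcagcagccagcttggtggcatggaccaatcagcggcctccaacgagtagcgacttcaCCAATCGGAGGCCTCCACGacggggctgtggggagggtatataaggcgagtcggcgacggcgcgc
Hsp90b1, chr10:86705445-86705694, minus strand: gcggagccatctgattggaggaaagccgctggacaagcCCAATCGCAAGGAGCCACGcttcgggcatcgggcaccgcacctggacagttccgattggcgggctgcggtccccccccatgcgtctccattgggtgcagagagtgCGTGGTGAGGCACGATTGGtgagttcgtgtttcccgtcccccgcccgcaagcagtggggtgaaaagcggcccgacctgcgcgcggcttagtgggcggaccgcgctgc
Herpud1, chr8:94386179-94386428, plus strand: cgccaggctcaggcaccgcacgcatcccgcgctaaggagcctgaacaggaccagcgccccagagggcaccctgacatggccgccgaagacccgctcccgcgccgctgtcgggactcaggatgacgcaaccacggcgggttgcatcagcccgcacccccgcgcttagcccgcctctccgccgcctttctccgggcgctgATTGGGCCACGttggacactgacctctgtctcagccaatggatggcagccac

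In Hspa5 the match began 65 bases before the start, and in Hsp90b1 the pair began 212 and 107 bases before it. Positions are those of the match's base farthest upstream. Across the 8 genes an ERSE began between 212 bases (Hsp90b1) and 44 bases (Syvn1) before the start. The ERSE-II of Dnajb11 and the UPRE of Sec23a lay just after the start, at 7 and 6 bases. Outside the members the ERSE occurred in 29 genes, of which 13 were measured and 8 called, while 50.6% of all genes were. With the stricter threshold just 1 of these 13 kept its call, compared with 22.1% of all genes. Of those 29, the further ER genes described below included Derl3 and Ero1b.

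**Figure D1:**
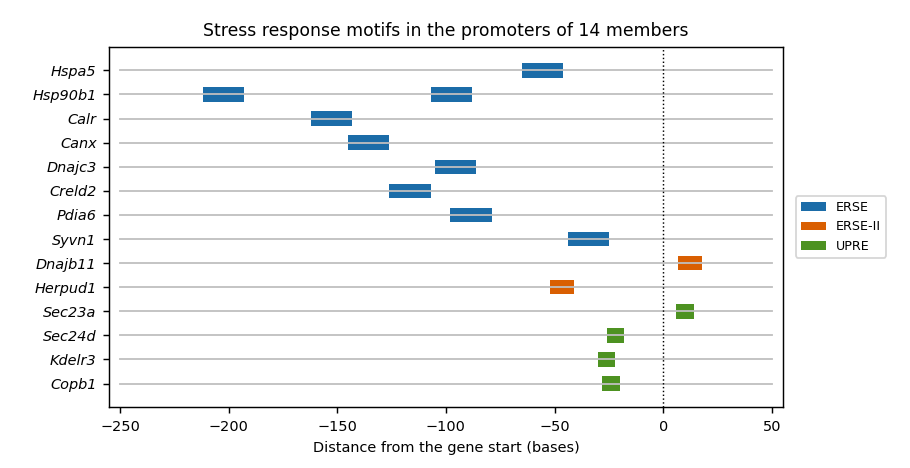
Position of each motif match (coloured bars, drawn to scale) in the promoters of the 14 members that hold at least 1, in bases from the gene start (dotted line), with the searched window as a grey line. The ERSE matches of 8 genes all lie before the start, between 212 and 44 bases from it at their first base.

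All 55 measured members lay above the chemosensory background, where 50.6% of all genes did. Above the other-tissue background lay 49 of the 55 (89.1%), where 22.1% of all genes did. The median margin of the members over the chemosensory threshold was 3.33 on the log2 scale, and over all genes it was 0.50. The adjusted p of a member ranged from 2.67e-07 (Hsp90b1, among others) to 0.00245 (Ern1) in limma. The members that missed the other-tissue call were the chaperone genes Fkbp11 and Hyou1 and, among the stress and degradation genes, Ern1, Eif2ak3, Syvn1 and Edem1. Of these, 4 gained the call under other settings, with adjusted p from 0.00517 to 0.0431 (limma). Hyou1 and Edem1 gained it with the mean over probesets, with the upper quartile and with a minimum of 8 probesets. Fkbp11 gained it with the last 2 of these settings, and Syvn1 with that minimum and with symbols not updated. The share of all genes above the other-tissue background was 26% with the mean, 23.1% with the upper quartile and 22% with symbols not updated. With the minimum of 8 probesets it was 32.6%. With the 99th percentile of the chemosensory genes as threshold, 48 of 55 members were called, against 20.1% of all genes, and the calls of these 6 genes and of Sec23a were lost.

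Single probesets were counted as well. Of the members' 980 probesets, 610 (62.2%) exceeded on all 3 arrays the 95th percentile of the chemosensory genes' probesets, while 78226 of 311953 probesets (25.1%) did over all measured genes. All 22 probesets of Hsp90b1 and all 6 of Fkbp2 did so. At the other end stood the kinase sensor genes, with 6 of 33 (18.2%) for Ern1 and 5 of 29 (17.2%) for Eif2ak3, below the share over all genes. The stress role as a whole had 78 of 204, a larger share than the 25.1% over all genes.

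**Figure D2:**
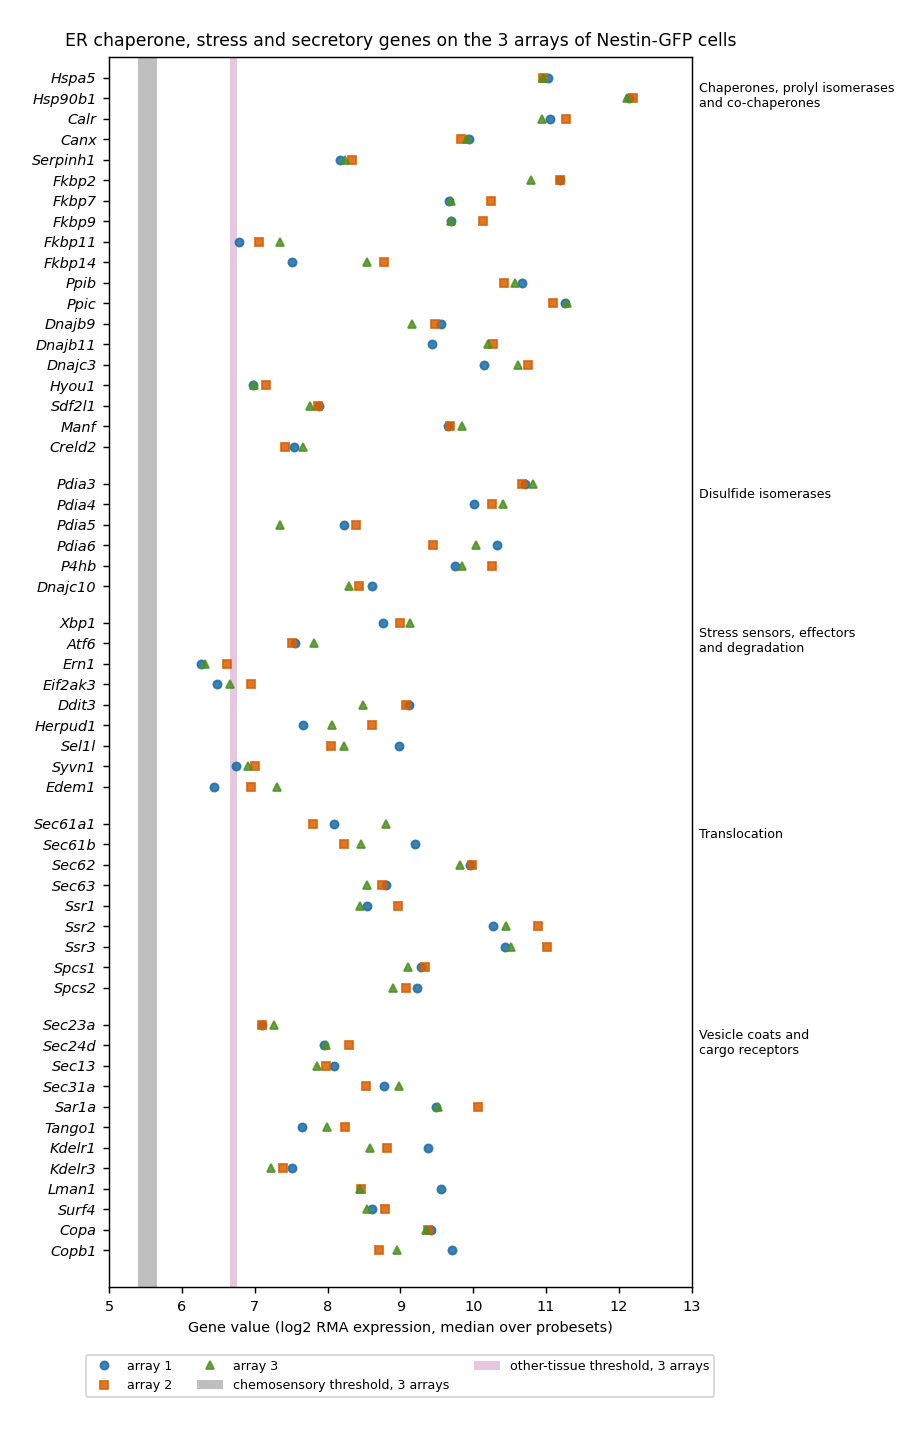
Value of each of the 55 measured members (rows, grouped by role) on array 1 (circles), array 2 (squares) and array 3 (triangles) on the log2 RMA scale, with the 3 arrays' chemosensory threshold (grey band) and other-tissue threshold (pink band). Every point lies to the right of the grey band, and Ern1, Eif2ak3, Syvn1 and Edem1 have points at or left of the pink band.

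Chaperones were called in 19 of 19 measured cases, and in 17 of 19 above the other-tissue background, against 50.6% and 22.1% of all genes. Hspa5, which encodes BiP, the Hsp70 chaperone of the ER and the brake on all 3 stress sensors, had 11.03, 10.95 and 10.95 (10.98 ± 0.04). Hsp90b1 (Grp94, the ER member of the Hsp90 family) had 12.14, 12.19 and 12.12 (12.15 ± 0.04). Both genes differed by less than 0.10 between the arrays. Calr and Canx encode calreticulin and calnexin, the soluble and the membrane-bound lectin that hold glycoproteins during folding. Calr had 11.05, 11.28 and 10.95 (11.09 ± 0.17). Canx had 9.95, 9.83 and 9.92 (9.90 ± 0.06).

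The collagen-specific chaperone gene Serpinh1 (Hsp47) had 8.17, 8.33 and 8.23 (8.24 ± 0.08). Cyclophilin B (Ppib), a prolyl isomerase that also takes part in collagen modification, averaged 10.56 ± 0.12 (SD, n = 3), and its relative Ppic 11.22 ± 0.10. Of the FK506-binding prolyl isomerases, Fkbp2 averaged 11.06 ± 0.23, Fkbp7 9.87 ± 0.33 and Fkbp9 9.85 ± 0.25. All 3 were well clear of both thresholds. Fkbp14, whose loss causes a connective tissue disorder in humans, had 7.50, 8.78 and 8.53 (8.27 ± 0.68), the widest spread of the 55 members. Fkbp11 was close to the stricter threshold, with 6.79, 7.05 and 7.35 (7.06 ± 0.28) and an adjusted p of 0.162 (limma) against the other-tissue background.

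The co-chaperones Dnajb9, Dnajb11 and Dnajc3 recruit BiP to substrates or stimulate its ATPase. Dnajb9 had 9.56, 9.48 and 9.15 (9.40 ± 0.22). Dnajb11 had 9.43, 10.27 and 10.21 (9.97 ± 0.47). Dnajc3 had 10.15, 10.75 and 10.61 (10.50 ± 0.31). Dnajc3 and Dnajb11 were lowest on array 1, and Dnajb9 was lowest on array 3, so the co-chaperones did not share an order of arrays. The nucleotide exchange factor gene Hyou1 had 6.98, 7.15 and 6.99 (7.04 ± 0.10), which missed the stricter threshold (adjusted p = 0.107, limma) although 14 of its 38 probesets were above the probeset threshold on all arrays. Sdf2l1, Manf and Creld2 are ER proteins that stress induces. Sdf2l1 had 7.88, 7.86 and 7.75 (7.83 ± 0.07). Manf averaged 9.73 ± 0.11 and Creld2 7.54 ± 0.12 (SD, n = 3).

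Disulfide isomerases form and reshuffle disulfide bonds through thioredoxin-like domains. They were called in 6 of 6 cases against both backgrounds, where 50.6% and 22.1% of all genes were. Pdia3 (ERp57, the partner of calnexin and calreticulin) had 10.71, 10.67 and 10.82 (10.73 ± 0.08). P4hb, which is protein disulfide isomerase itself and the beta subunit of collagen prolyl 4-hydroxylase, had 9.75, 10.25 and 9.85 (9.95 ± 0.26). Their arrays differed by 0.15 and 0.50 at most. Pdia4 had 10.01, 10.26 and 10.41 (10.23 ± 0.20). Pdia6, an isomerase that works with BiP, had 10.32, 9.44 and 10.04 (9.93 ± 0.45). Dnajc10, a reductase that opens disulfides of proteins bound for degradation, had 8.61, 8.43 and 8.30 (8.45 ± 0.16). Pdia5 was the most variable, with 8.23, 8.39 and 7.34 (7.99 ± 0.56), and 13 of its 17 probesets were lowest on array 3. Its other-tissue call (adjusted p = 0.00586, limma) was lost with the upper quartile over probesets in place of the median (adjusted p = 0.0556, limma).

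Sensors, effectors and degradation genes were called in 9 of 9 cases, against 50.6% of all genes. Above the other-tissue background lay 5 of 9 (55.6%), the lowest share of the 5 roles but above the 22.1% of all genes. Xbp1, the transcription factor whose mRNA Ire1 splices, had 8.76, 8.99 and 9.14 (8.96 ± 0.19). Atf6, a sensor that is itself cut to yield a transcription factor, had 7.56, 7.51 and 7.81 (7.62 ± 0.16). Probeset medians do not separate the spliced from the unspliced Xbp1 form. The kinase sensors were near the stricter threshold. Ern1 had 6.26, 6.61 and 6.31 (6.39 ± 0.19), on average -0.30 from it. Eif2ak3 had 6.48, 6.95 and 6.65 (6.69 ± 0.24), on average -0.0006 from it. In both genes the highest array was array 2.

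Ddit3 (Chop), the factor that promotes cell death under lasting stress, had 9.12, 9.07 and 8.49 (8.89 ± 0.35) over 5 probesets, of which 3 were above the probeset threshold on all arrays. Herpud1, a membrane protein of ER-associated degradation that stress induces, had 7.66, 8.60 and 8.06 (8.11 ± 0.47). The ubiquitin ligase of that pathway, Syvn1 (Hrd1), had 6.74, 7.01 and 6.90 (6.88 ± 0.14). Its arrays lay within 0.27 of each other, whereas those of its partner differed more. That partner, Sel1l, had 8.98, 8.05 and 8.22 (8.42 ± 0.49). Edem1, a mannosidase-like protein that marks glycoproteins for degradation, had 6.44, 6.94 and 7.31 (6.90 ± 0.44). Syvn1 and Edem1 missed the stricter call with adjusted p of 0.444 and 0.643 (limma). In this role 6 of 9 members were lowest on array 1, as were 30.2% of all genes.

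Translocation genes were called in 9 of 9 measured cases against both backgrounds, where 50.6% and 22.1% of all genes were. Sec61a1, the pore-forming subunit of the channel, had 8.08, 7.80 and 8.80 (8.23 ± 0.52). Sec61b, a small subunit, had 9.20, 8.22 and 8.46 (8.63 ± 0.51). Array 2 was the lowest for both subunits. Sec62 and Sec63, which assist translocation after translation, averaged 9.92 ± 0.09 and 8.69 ± 0.14 (SD, n = 3). Of the translocon-associated protein complex, Ssr1 had 8.55, 8.97 and 8.44 (8.65 ± 0.28). Ssr2 had 10.27, 10.89 and 10.46 (10.54 ± 0.32). Ssr3 had 10.44, 11.01 and 10.52 (10.66 ± 0.31). By the gene median all 3 subunit genes were highest on array 2, as were 35.3% of all genes. Of single probesets, 6 of 10 for Ssr2 and 5 of 9 for Ssr3 were highest there. For Ssr1 only 4 of 16 were, and 7 of its probesets were lowest on array 2. The signal peptidase subunit genes Spcs1 and Spcs2 averaged 9.25 ± 0.12 and 9.07 ± 0.16. With genes of at least 2 probesets admitted, Srp54a, which encodes the signal-binding subunit of the signal recognition particle, averaged 9.36 ± 0.19 and was called (adjusted p = 1.8e-05, limma). Most probesets of Srp54a also name its near copies Srp54b and Srp54c and were not used, so this value is uncertain.

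Vesicle coat and cargo receptor genes were called in 12 of 12 measured cases against both backgrounds, where 50.6% and 22.1% of all genes were. Of the inner COPII layer, Sec23a had 7.10, 7.10 and 7.26 (7.15 ± 0.09). Its cargo-binding partner Sec24d had 7.96, 8.30 and 7.98 (8.08 ± 0.19). The outer layer of the coat is built from Sec13 and Sec31a. Sec13 had 8.09, 7.97 and 7.86 (7.97 ± 0.11). Sec31a had 8.78, 8.53 and 8.98 (8.76 ± 0.22). Sar1a, the GTPase that starts the coat, was highest on array 2, with 9.48, 10.07 and 9.52 (9.69 ± 0.33). Tango1, which loads procollagen into COPII carriers, had 7.65, 8.24 and 7.99 (7.96 ± 0.29). The other-tissue call of Sec23a (adjusted p = 0.0432, limma) was lost when any 1 of the 3 arrays was left out, with adjusted p between 0.087 and 0.217 (limma). The COPI coat was represented by 2 subunit genes with unlike spread. Copa had 9.42, 9.39 and 9.35 (9.39 ± 0.04). Copb1 had 9.71, 8.71 and 8.96 (9.13 ± 0.52).

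The KDEL receptors recapture escaped ER chaperones by their C-terminal retrieval signal. Kdelr1 had 9.38, 8.81 and 8.59 (8.93 ± 0.41). Kdelr3 had 7.52, 7.39 and 7.23 (7.38 ± 0.14). By the gene median both were highest on array 1 and lowest on array 3. Of the 13 single probesets of Kdelr3, however, 6 were highest on array 1 and 7 on array 2. Kdelr2, admitted with its 3 probesets, averaged 8.56 ± 0.42 and was called (adjusted p = 0.000133, limma). The other-tissue call of Kdelr3 was lost with the upper quartile over probesets (adjusted p = 0.0655, limma). The cargo receptor Lman1, which exports certain clotting factors, had 9.56, 8.45 and 8.45 (8.82 ± 0.64). Surf4, a receptor for soluble cargo, averaged 8.65 ± 0.13 (SD, n = 3).

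**Figure D3:**
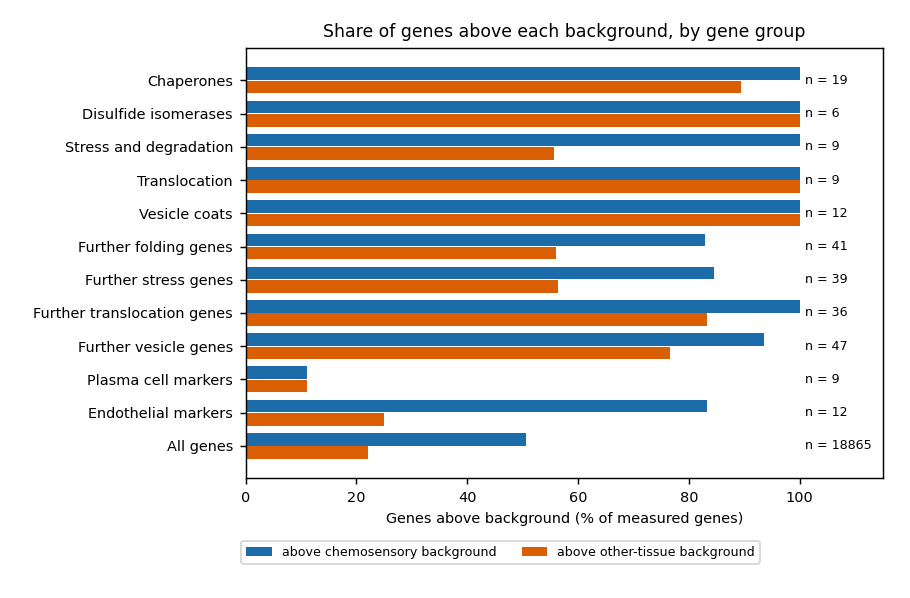
Share of measured genes called above the chemosensory background (blue) and the other-tissue background (orange), for the 5 roles of the members, the 4 lists of further ER genes, 2 lists of cell type markers and all genes, with the number measured beside each pair of bars. The members' bars reach 100% against the first background, while the stress role falls to 55.6% against the second, and all genes stand at 50.6% and 22.1%.

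The rest of the pathway was also broadly above background, with 147 of 163 measured genes called (90.2%), against 50.6% of all genes, and 111 (68.1%) above the other-tissue background, against 22.1%. Among further folding genes 34 of 41 were called. Rcn3 and Rcn1, calcium-binding proteins of the secretory pathway, averaged 10.53 ± 0.26 and 10.36 ± 0.38 (SD, n = 3), and the chaperone gene Erp29 had the smallest margin of the called genes, with 6.20 ± 0.31. The 7 genes not called were Tmx4 (6.20 ± 0.81), Txndc16 (5.92 ± 0.62), Cdnf (5.77 ± 0.29), Erp27 (5.52 ± 0.18), Pdia2 (4.90 ± 0.29), Clgn (4.66 ± 0.15) and Calr3 (4.65 ± 0.11). Clgn and Calr3 are the testis forms of calnexin and calreticulin, and Pdia2 is a pancreatic isomerase.

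Among further stress and degradation genes 33 of 39 were called, against 50.6% of all genes. Selenos, a selenoprotein of ER-associated degradation, averaged 10.05 ± 0.15 (SD, n = 3), the ATPase gene Vcp, which pulls proteins out of the membrane, 9.77 ± 0.07, and Edem2, with the smallest margin of the called genes, 6.02 ± 0.42. The 6 not called were Ppp1r15b (6.04 ± 0.25), Wfs1 (6.03 ± 0.33), Man1b1 (5.63 ± 0.82), Sesn2 (5.49 ± 0.40), Asns (5.48 ± 0.04) and Ube2j2 (5.12 ± 0.29). The called genes also included Ern2 (6.07 ± 0.12) and Creb3l3 (6.08 ± 0.08), the gut and liver relatives of Ern1 and Creb3, which were chosen after their values were seen. Both lay 0.50 to 0.52 above the chemosensory threshold, and of the 124 other-tissue genes themselves 14 (11.3%) were called.

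Among further translocation genes 36 of 36 were called, against 50.6% of all genes. Stt3a, a catalytic subunit of oligosaccharyltransferase, averaged 10.46 ± 0.14 (SD, n = 3). Magt1, which encodes an oxidoreductase subunit of oligosaccharyltransferase, averaged 10.20 ± 0.23, and Get4, with the smallest margin, 6.53 ± 0.25. Among further vesicle genes 44 of 47 were called, against the same 50.6%. The cargo receptor gene Tmed10 averaged 10.43 ± 0.18, the COPI subunit gene Copz2 10.18 ± 0.17, and the Golgi matrix gene Golga2, with the smallest margin of the called genes, 6.60 ± 0.12. Those not called were Sec31b (5.26 ± 0.06) and Sec16b (5.17 ± 0.48), the less widely expressed relatives of Sec31a and Sec16a, and Klhl12 (4.71 ± 0.28), an adaptor that ubiquitinates Sec31.

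Of 9 measured plasma cell markers 1 was called, Sdc1 (7.38 ± 0.43, SD, n = 3), which is also made outside the plasma cell lineage. Mzb1 had 5.93, 5.93 and 5.81 on arrays 1, 2 and 3, above the chemosensory threshold on each, but was not called (adjusted p = 0.11, limma). Pou2af1 had 5.32, 6.18 and 6.98, above that threshold on arrays 2 and 3, and was not called either (adjusted p = 0.0581, limma). The other 6 markers, Jchain, Tnfrsf17, Irf4, Prdm1, Fcrl5 and Slamf7, were below that threshold on every array. Jchain, the joining chain of antibodies, had 4.39, 4.56 and 4.96. The list's median was 5.08, 4.75 and 4.84 on arrays 1, 2 and 3. Of other marrow cells' markers, 10 of 12 endothelial genes were called, 3 of them also above the other-tissue background. Calls were also made for 4 of 12 pan-leukocyte, 6 of 10 neutrophil, 4 of 10 macrophage and 3 of 9 erythroid genes. Above the other-tissue background lay 1 pan-leukocyte gene (Lcp2), 2 neutrophil genes (S100a8 and Camp), 0 macrophage genes and 1 erythroid gene (Hbb-b1). Over all genes the shares above the chemosensory and the other-tissue background were 50.6% and 22.1%. Osteoblast genes, whose cells also secrete collagen, were called in 8 of 9 cases, with Col1a1 at 10.10, 8.19 and 8.65 and Ibsp at 12.32, 12.32 and 12.34.

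As a group the members moved little between the arrays. Their median deviation from the gene's own mean, after removal of the array's median over all genes, was -0.07, 0.04 and -0.04 on arrays 1, 2 and 3. In bulk RNA, fewer cells of a type and less RNA per cell cannot be told apart in such deviations. The highest of the 3 values was on array 1 in 18 members, on array 2 in 25 and on array 3 in 12, while 37.5%, 35.3% and 27.2% of all genes were highest there. On array 2, where the endothelial median deviation was -1.22, 14 of 55 members were lowest, as were 32.9% of all genes. The part of the endothelial difference in the members' values was not tested. Of the others 22 were lowest on array 1 and 19 on array 3, where 30.2% and 36.9% of all genes were.

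The members' median SD over the 3 arrays was 0.20, against 0.27 for all genes and 0.28 for genes above the other-tissue background. An SD below the all-gene median was found in 34 of 55 members (61.8%). A range under 0.20 occurred in 12 members (21.8%), against 12.6% of all genes. The 5 smallest SDs, from 0.04 to 0.07, were those of Hsp90b1, Copa, Hspa5, Canx and Sdf2l1. A range above 1 occurred in 4 members (7.27%), against 15.8% of all genes, and these were Fkbp14, Pdia5, Lman1 and Sec61a1. The 8 members with an ERSE had a median SD of 0.13, and the 40 other measured members with a promoter entry 0.23. Of the 8, 6 are chaperone genes, and the 19 measured chaperone genes had a median SD of 0.12 as a whole.

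Each probeset was also compared with itself, by taking its deviation from its own mean over the arrays before the median over the gene. This was read for the 12 members with the largest SDs, on the array where the gene median deviated most. Sec61b had 0.54 on array 1 by the gene median and 0.53 by single probesets, and all 11 of its probesets were highest there. Pdia5 had -0.61 on array 3 and -0.53 by single probesets. Sec61a1 had 0.61 on array 3 and 0.38 by single probesets, and 13 of its 16 probesets were highest there. Herpud1 had 0.49 on array 2 and 0.31 by single probesets.

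In the other 8 of these members the deviation was smaller still by single probesets, or turned. Fkbp14, Dnajb11 and Edem1 had -0.79, -0.56 and -0.48 on array 1 by the gene median, and -0.25, -0.23 and -0.25 by single probesets. Lman1, Copb1 and Kdelr1 had 0.71, 0.56 and 0.43 on array 1, and 0.23, 0.09 and 0.19 by single probesets. Pdia6 had -0.50 on array 2 and -0.26 by single probesets. Sel1l had 0.53 on array 1 and -0.09 by single probesets, so its direction depended on the calculation. A small SD of the gene median was not always small by single probesets, since Hspa5 then had -0.07, 0.01 and 0.12 on arrays 1, 2 and 3, and Canx 0.04, -0.13 and 0.09. Sec23a, by contrast, had 0.02, 0.06 and 0.03. Probesets of a gene share the RNA of their array and are not replicates, and with 1 sample an array these differences have no test.

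**Figure D4:**
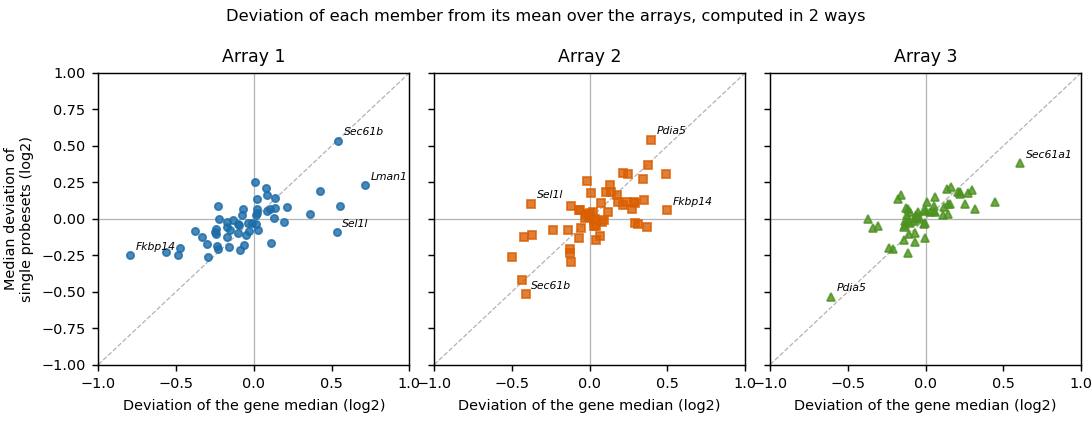
For each array, the deviation of the 55 members from their mean over the arrays by the gene median (horizontal axis) and by the median deviation of single probesets (vertical axis), both in log2 units after centring on all genes, with a dashed line where both are equal. Sec61b on array 1, and Pdia5 and Sec61a1 on array 3, stay away from 0 on both axes, while Fkbp14 and Sel1l on array 1 lie toward 0 or across it on the vertical axis.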

How the data were processed

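RNA of sorted GFP-positive marrow cells was measured on 3 arrays of 1256831 probesets each. The deposited values were log2 expression per probeset, which the authors obtained by RMA in Affymetrix Expression Console 1.1, per the submitters' processing notes; its settings, and which annotation build was used, are not given in the sources read. From a table of the platform's annotation, 318760 probesets had 1 gene symbol and 6684 had several, which were not used. Former symbols were updated through RefSeq synonyms (4227 symbols). Gene values were medians over at least 4 probesets. Called genes came from an intercept-only limma 3.58.1 fit (R 4.3.3) to values minus the array's background threshold, one-sided, with Benjamini-Hochberg adjustment over 18865 genes and a threshold of 0.05, checked on simulated data. No sample was imputed, and samples were dropped only in the alternatives that leave out an array. The number of arrays limits the precision.

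Every measured member is named with its mean and SD; by rule, those of the stress and isomerase roles, of failed or lost calls and of the 5 largest and 5 smallest SDs, and beyond it some others, have values per array. Of each further list, the 2 called genes with the largest margin, the 1 with the smallest and all not called are named; the margin only picks these names and ranks no RNA amounts. The members, lists and tests were chosen with earlier results of these data known. Protein sequence features planned for the members were not analysed here. Alternatives changed the summary over probesets, the probeset minimum, the threshold percentile, zeros, normalisation, symbols, limma's prior and the arrays used.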

Additional observations from a re-analysis of the deposited data

How the results depend on the processing

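All 55 measured members stayed above the chemosensory background under every alternative except the 99th percentile, which left 48, where all genes fell to 20.1%; there the margins of Ern1 and Eif2ak3 were -0.40 and -0.10. With at least 2 probesets 57 of 57 measured members were called, against 37% of all genes. With at least 8 probesets 49 of 49 were called, against 60.2% of all genes. The count above the other-tissue background was 49 of 55 and lay between 47 and 51, with 48 without each array in turn. The 47 were of 49 measured members, with at least 8 probesets. The 51 were of 55 with the mean over probesets and of 57 with at least 2 probesets. Over these settings 19.2% to 32.6% of all genes lay above that background. The count of further ER genes was 147 of 163. It lay between 139 (at least 2 probesets) and 151 (mean over probesets), apart from 105 with the 99th percentile. When an array was left out it was between 142 and 144. The number of these genes measured can change with the probeset minimum. Of all genes 37% to 60.2% were called over these settings, and 20.1% with the 99th percentile. The members' median deviation on array 3 was -0.04 and took the other sign, 0.05 and 0.04, with the mean over probesets and with deviations of single probesets. No paired analysis was possible because there is 1 group. With 3 arrays and no second group, only signal over background can be judged, and low margins such as that of Ern1 depend on the threshold.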
